A study of Capra hircus with 12 samples.

Results

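The smooth muscle-type genes ACTG2, ACTA2 and CNN1 and the basal transcription factor gene TP63 were followed in mammary biopsies of goats of 2 breeds on 2 diets. The genes were picked by symbol from the first sheets of the 6 deposited tables, so 4 genes are described out of 4974 listed in any table. Under feed restriction the levels of ACTG2, CNN1 and ACTA2 fell over both breeds, by 1.90, 1.25 and 0.97 on the log2 scale, and the level of TP63 rose by 0.87. Only for ACTG2 did this difference pass the test under every alternative fitted. For CNN1, ACTA2 and TP63 it no longer passed under another scaling of the libraries. Under the main scaling, the difference between diets had the same sign in Majorera and in Palmera goats for each of the 4 genes. For TP63 in Palmera goats, another scaling moved it to -0.02. Neither a breed effect nor a breed by diet interaction passed the test for any of them.

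Myoepithelial cells form the contractile outer layer of mammary alveoli and ducts. They sit between the milk-secreting luminal cells and the basement membrane, and they squeeze the alveoli when oxytocin reaches its receptor and calcium rises in the cell. Their contractile apparatus is shared with smooth muscle: ACTA2 encodes the alpha and ACTG2 the gamma smooth muscle actin, and CNN1 encodes calponin 1, a protein that binds actin and myosin and damps their interaction. TP63 encodes p63, a transcription factor of the p53 family that marks basal epithelial cells and maintains their identity. The 3 contractile genes are also active in smooth muscle of vessels and, for ACTA2, in pericytes and myofibroblasts, whereas p63 is confined to the basal layer of epithelia.

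The 12 libraries came from the Majorera and Palmera dairy breeds of the Canary Islands, with 3 goats in each of 4 groups: Majorera control (MC), Majorera restricted (ME), Palmera control (PC) and Palmera restricted (PE). Control goats were adequately fed, and restricted goats received wheat straw with a vitamin and mineral supplement until the biopsy on day 22. Control and restricted goats stood in separate pens, so that diet and pen cannot be told apart. The labels give each goat as a biological replicate of its group, and the replicate numbers did not pair goats across groups.

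Each table listed only genes that had passed an unadjusted p threshold of 0.05 in that pair of groups, and 1408 genes had counts in all 12 libraries. The 4 genes stood in every table that compared a control with a restricted group, which gave their counts in every library. ACTG2 alone stood in the table of MC vs. PC, and none of them in that of ME vs. PE. The deposited values were expected read counts, between 75 and 6204 for these genes, with TP63 counted least deeply at 75 to 484. ACTG2 and ACTA2 are close paralogs, and reads that match both can be split between them. All 48 counts of the 4 genes were exact whole numbers, against 90.42% of all values in the tables. That does not show whether shared reads were assigned to the right gene. Levels are given as CPM, the reads of a gene relative to the mapped reads of its library after TMM scaling (trimmed mean of M values, a factor that corrects for differences in RNA composition), and since transcript lengths were not used here, levels were not compared between genes. ME replicate 2 and PE replicate 1 stood apart. ME replicate 2 had a TMM factor of 1.996, against 0.641 to 1.386 in the others, and the pair had 110 and 84.2 CPM of the basal keratin gene KRT15, against 6.21 to 20.8 CPM elsewhere. In bulk tissue, fewer cells of a type and less RNA per cell cannot be told apart.

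ACTG2 had the largest fold between diets of the 4 genes, though its diets overlapped. Its level was 24.8, 29.7 and 24.9 CPM in the MC goats and 5.44, 4.69 and 5.97 CPM in the ME goats. In Palmera it was 10.5, 19.5 and 5.76 CPM in PC and 2.54, 5.72 and 4.62 CPM in PE. Every MC goat stood above all others, the nearest being a PC goat at 19.5 CPM, and the lowest PC goat lay just above the highest PE goat and below the highest ME goat. The group means were 26.5 ± 2.80 CPM in MC, 11.9 ± 6.95 in PC, 5.37 ± 0.643 in ME and 4.29 ± 1.62 in PE (SD, n = 3 each). In this order MC did not overlap PC, while PC overlapped ME and ME overlapped PE.

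CNN1 had a similar order. Its level was 23.4, 20.1 and 30.5 CPM in MC and 6.28, 10.7 and 7.43 CPM in ME. PC goats had 12.6, 26.1 and 12.2 CPM, and PE goats 6.48, 11 and 9.79 CPM. All 6 control goats lay above all 6 restricted goats, with the lowest control at 12.2 and the highest restricted at 11 CPM. Means were 24.7 ± 5.35 CPM in MC, 17 ± 7.90 in PC, 9.08 ± 2.32 in PE and 8.12 ± 2.27 in ME (SD, n = 3 each), and MC overlapped PC as PE overlapped ME.

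ACTA2 had the smallest fitted difference between diets of the 3 contractile genes. MC goats had 147, 109 and 142 CPM, and ME goats had 45.3, 74.1 and 70.5 CPM. PC goats were at 78.0, 131 and 110 CPM, and PE goats at 29.1, 89.0 and 55.9 CPM. The Majorera groups did not overlap, but the highest PE goat exceeded the lowest PC goat. Means were 133 ± 20.9 CPM in MC, 106 ± 26.7 in PC, 63.3 ± 15.7 in ME and 58.0 ± 30.0 in PE (SD, n = 3 each), and the neighbours MC and PC, and ME and PE, overlapped.

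TP63 ran the other way. Its level was 3.21, 3.97 and 3.71 CPM in MC and 7.90, 5.78 and 6.86 CPM in ME. PC goats had 2.35, 5.44 and 4.06 CPM, and PE goats 6.89, 7.79 and 6.36 CPM. Every restricted goat lay above every control goat, the nearest values being 5.44 CPM in a PC and 5.78 CPM in an ME goat. Means were 7.02 ± 0.724 CPM in PE, 6.85 ± 1.06 in ME, 3.95 ± 1.55 in PC and 3.63 ± 0.388 in MC (SD, n = 3 each), with overlap between the breeds on either diet. PC was the most variable group for ACTG2, CNN1 and TP63, with coefficients of variation of 58.3%, 46.6% and 39.3%, and PC replicate 2 was its highest goat for all 4 genes.

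**Figure D1:**
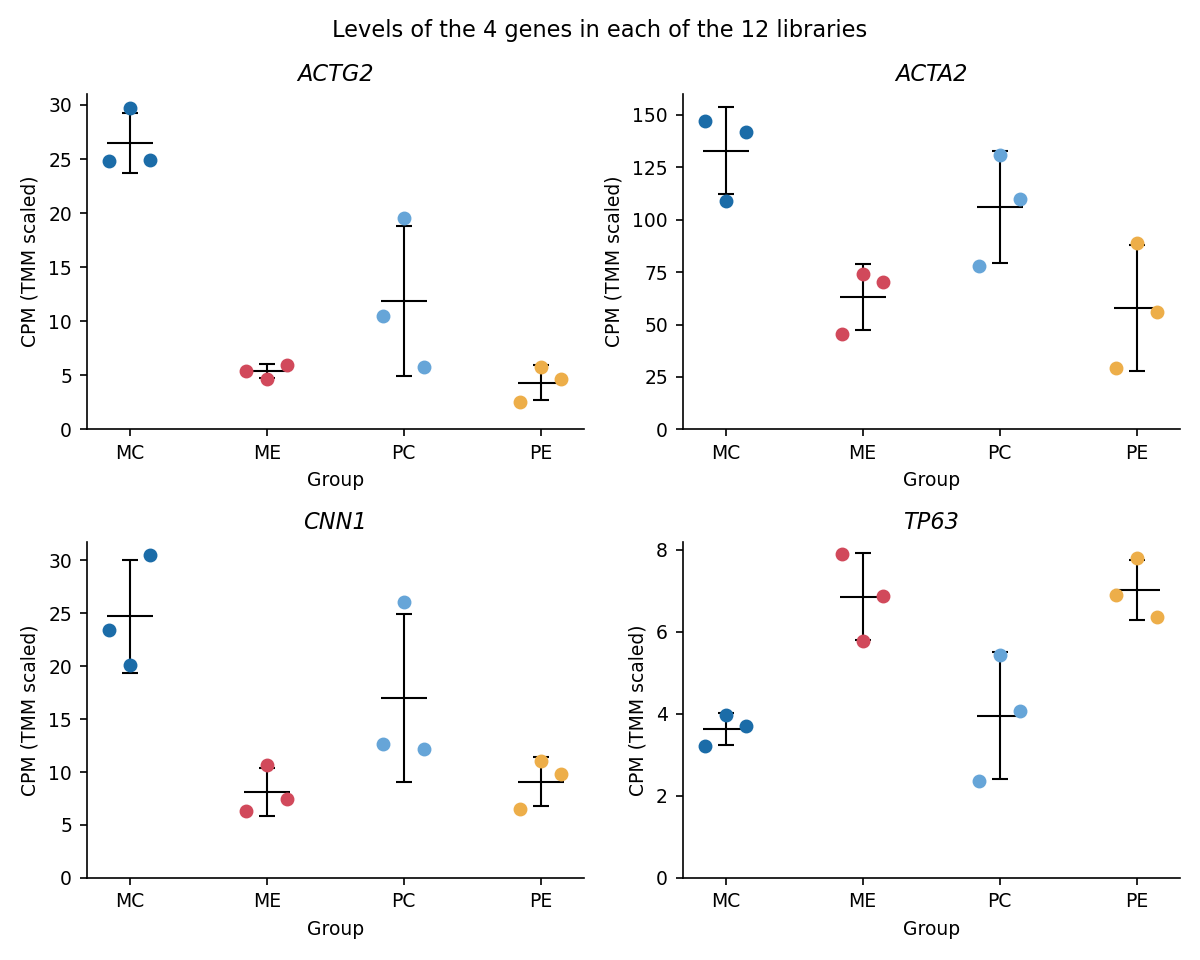
Level of ACTG2, ACTA2, CNN1 and TP63 in CPM (TMM scaled, linear axes from 0) in each of the 12 libraries, by group; points are goats, horizontal lines are means and bars are SD (n = 3). For CNN1 and TP63 the control and restricted goats do not overlap, and ACTG2 is at 24.8 to 29.7 CPM in MC against 2.54 to 5.97 CPM in the restricted goats.

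The response to feed restriction in Majorera goats was addressed by MC vs. ME. All 4 genes had groups that did not overlap, as did 70.6% of the genes listed in that table. ACTG2 was 4.98-fold lower in ME, with a Log2FC of -2.32 ± 0.19 (SE), and was the only one of the 4 called by edgeR's quasi-likelihood test (Benjamini-Hochberg adjusted p = 0.00555), where 0.0397% of the 15102 genes tested were called. CNN1 had a Log2FC of -1.62 ± 0.26 (adjusted p = 0.105), ACTA2 of -1.08 ± 0.26 (adjusted p = 0.169) and TP63 of 0.90 ± 0.20 (adjusted p = 0.155) in the same test. The call for ACTG2 was lost without MC replicate 3 (adjusted p = 0.0593), ME replicate 1 (0.0511) or ME replicate 3 (0.0624), with Log2FC between -2.41 and -2.22 over the 6 fits without 1 library. It was also lost in a fit of all 12 libraries, which share 1 estimate of the spread (Log2FC -2.30 ± 0.38, adjusted p = 0.0705). DESeq2's Wald test on the same counts called ACTG2, CNN1 and ACTA2, with 1.42% of all genes tested. The study's own edgeR analysis, with its own thresholds, reported both ACTG2 and CNN1 as higher in MC than in ME. With mapped reads alone as library size, which moved the median of the listed genes by 0.89, edgeR called TP63 (1.73) and ACTG2 (-1.47), with 2.54% of all genes, while CNN1 stood at -0.65 and ACTA2 at -0.15. With the reads of the casein genes and LALBA, here called milk protein reads, taken out of the library size, that median moved by 0.61. ACTG2 (-1.75) was then called, with 0.0795% of all genes, and CNN1 stood at -0.96, ACTA2 at -0.45 and TP63 at 1.46.

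In Palmera goats, PC vs. PE gave the same signs and smaller fitted differences. The Log2FC was -1.48 ± 0.44 for ACTG2, -0.90 ± 0.33 for CNN1, -0.87 ± 0.39 for ACTA2 and 0.82 ± 0.29 for TP63. None of the 4 was called by edgeR's test (adjusted p between 0.159 and 0.368), where 0.00678% of 14753 genes were, and DESeq2 called none of them either. ACTG2 was called with mapped reads alone as library size (adjusted p = 0.0313, with 2.71% of all genes), with no filter on low counts (0.024, with 3.22%) and, together with CNN1, with milk protein reads taken out of the library size (0.0019, with 5.94%). ACTG2, CNN1 and TP63 had an unadjusted p under 0.05 in edgeR's test, as did 92.1% of the genes listed, and their groups did not overlap, as for 73.2% of the genes listed. For TP63 the difference went to -0.02 when the reads of the milk proteins were taken out of the library size, a scaling that moved the median of all listed genes by -0.93.

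Across all 12 libraries, with breed in the model, the 4 genes were each called for diet by edgeR's quasi-likelihood test, as were 30.9% of the 1408 genes with counts in every library, 14.8% as lower and 16.1% as higher. All 1408 genes, the 4 included, had passed the authors' threshold in the tables that together gave these counts, so that these shares are not those of all genes. Without 1 library the share called ran from 14.7% (without PE replicate 1) to 37.5% (without PE replicate 2). ACTG2 was 3.73-fold lower in restricted goats (Log2FC -1.90, 95% interval -2.50 to -1.30, adjusted p = 0.00564). CNN1 was 2.38-fold lower (-1.25, interval -1.77 to -0.74, adjusted p = 0.0144) and ACTA2 1.96-fold lower (-0.97, interval -1.49 to -0.45, adjusted p = 0.0483). TP63 was 1.83-fold higher (0.87, interval 0.50 to 1.24, adjusted p = 0.0188). The diets did not overlap for 2 of the 4 genes, against 18.5% of the 1408. In an exact permutation test with diet labels exchanged within breed, two-sided, p was 0.005 for ACTG2, CNN1 and TP63, the smallest value that the 400 assignments allow, and 0.01 for ACTA2. The 4 genes were listed because these same goats had differed in them. Neither edgeR's test nor the permutation test thus gives independent support for a diet difference.

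The diet call for ACTG2 held under every alternative fitted. That for ACTA2 was lost on leaving out any single library other than PE replicate 2, with adjusted p between 0.0106 and 0.124 over the 12 fits. Without both ME replicate 2 and PE replicate 1, ACTG2 remained called, with 8.1% of the 1408 genes, and the Log2FC of CNN1 (-1.26, adjusted p = 0.0716), TP63 (0.93, adjusted p = 0.0576) and ACTA2 (-0.87, adjusted p = 0.127) kept their sizes without passing the threshold in edgeR's test.

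**Figure D2:**
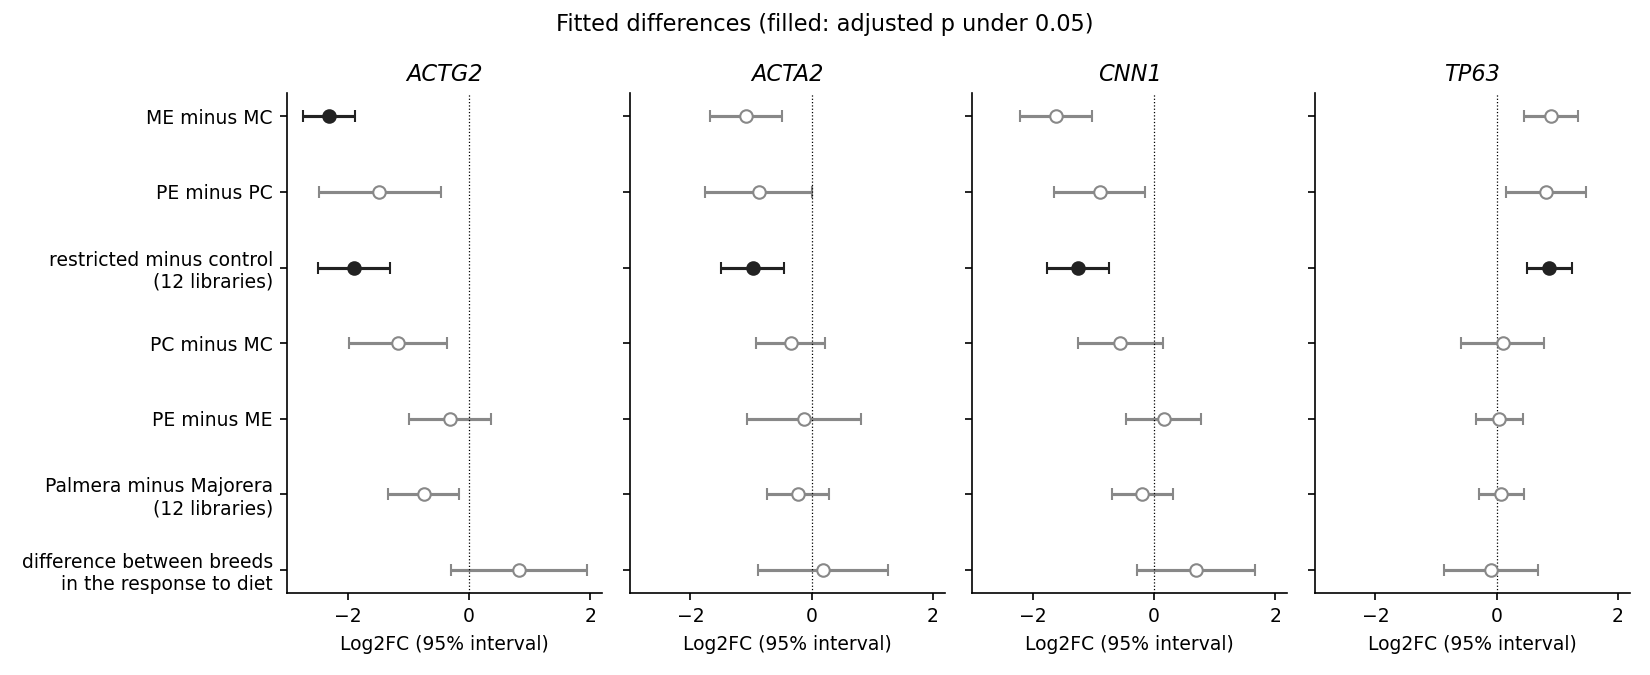
Fitted Log2FC (x axis, bars are 95% intervals) of the 4 genes in 7 comparisons (rows); filled symbols have an adjusted p under 0.05 in edgeR's quasi-likelihood test. The diet rows lie below 0 for ACTG2, ACTA2 and CNN1 and above 0 for TP63, and the breed rows lie nearer to 0, with ACTG2 at -1.17 between the control groups.

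These differences depended on the library scaling. Milk protein reads were here those of CSN1S1, CSN1S2, CSN2, CSN3 and LALBA, and the reads of PAEP, another milk protein gene, were not among them. They made up 31.0% to 67.9% of mapped reads in control goats and 12.2% to 31.4% in restricted goats, and their part in the dependence was not tested. With mapped reads alone as library size, which moved the median diet Log2FC of the 1408 genes by 0.43, the diet Log2FC was -1.49 for ACTG2, -0.78 for CNN1, -0.57 for ACTA2 and 1.25 for TP63. CNN1 (adjusted p = 0.283) and ACTA2 (adjusted p = 1.0) were then no longer called by edgeR's test, where 42.5% of the 1408 genes were. With the milk protein reads taken out of the library size, only ACTG2 was called, with 17% of the 1408 genes, and TP63 stood at 0.72 (adjusted p = 1.0). The sign of the diet difference was unchanged for all 4 genes under the 3 other scalings. Among all genes called for diet, 208 were lower and 227 higher under the main scaling, 82 and 517 with mapped reads alone, and 148 and 92 with milk protein reads taken out.

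**Figure D3:**
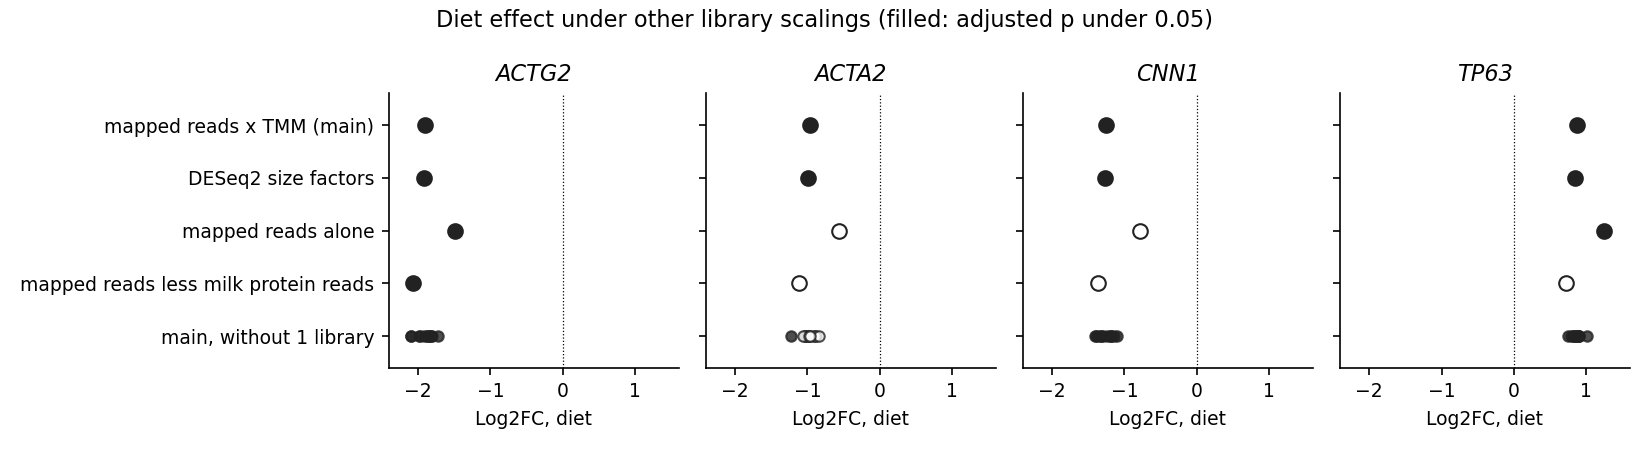
Diet Log2FC over 12 libraries (x axis, restricted minus control) for each gene under 4 library scalings, and under the main scaling with each library left out in turn (bottom row, 12 points); filled symbols have an adjusted p under 0.05. ACTG2 is filled throughout, ACTA2 is open in 11 of the 12 fits without 1 library, and no point crosses 0.

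Ratios between the genes within a library do not depend on that scaling. A ratio of counts is not corrected for transcript length, so only its change between libraries is read. The count of ACTG2 over that of TP63 was 7.73, 7.48 and 6.72 in the MC goats, against 0.689, 0.812 and 0.871 in the ME goats. It was 4.49, 3.57 and 1.42 in the PC goats, against 0.368, 0.734 and 0.726 in the PE goats. Control goats all lay above restricted goats, and the ratio was 6.73-fold lower under restriction (exact permutation test within breed, two-sided, p = 0.005, adjusted over the 6 ratios 0.01). CNN1 over TP63 ran from 3.00 to 8.24 in control goats and from 0.796 to 1.84 in restricted goats, 4.4-fold lower. ACTA2 over TP63 ran from 24.1 to 45.9 and from 4.22 to 12.8, 3.85-fold lower. Both of these had the same exact permutation p of 0.005, adjusted 0.01, and no overlap between diets, and all 3 ratios to TP63 passed whichever library was left out. Each of the 4 genes had already passed the authors' threshold in every comparison of a control with a restricted group. TP63 differed there in the opposite direction to the others, so these ratios give no independent support for a diet difference.

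Among the contractile genes the proportions moved less. ACTG2 over CNN1 was 1.06, 1.48 and 0.816 in MC goats, against 0.866, 0.441 and 0.804 in ME goats. Palmera controls had 0.834, 0.746 and 0.473, and restricted Palmera goats had 0.391, 0.522 and 0.472. The ratio was 1.53-fold lower in restricted goats (exact permutation p = 0.03, adjusted 0.045), with overlap between diets. That call was lost on leaving out any of 9 of the 12 libraries in turn (MC replicates 1 and 2, ME replicates 2 and 3, PC replicates 1 and 2, or any PE replicate), with adjusted p between 0.012 and 0.09. ACTG2 over ACTA2 was 1.75-fold lower (exact permutation p = 0.045, adjusted 0.054) and CNN1 over ACTA2 1.14-fold lower (exact permutation p = 0.41, adjusted 0.41), and neither passed. ACTG2 over ACTA2 passed without PC replicate 3 (exact permutation, adjusted p = 0.0075), the PC goat with the lowest ACTG2 level.

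Between breeds, with labels exchanged within diet, the log2 ratio of ACTG2 over CNN1 was lower in Palmera by about as much as it was under restriction (-0.63 for breed against -0.61 for diet), with an exact permutation p of 0.035, adjusted over the 6 ratios 0.105. The log2 ratio of ACTG2 over TP63 differed by -0.90 (exact permutation p = 0.015, adjusted 0.09), and the other 4 ratios differed by -0.57 to 0.06 (exact permutation, adjusted p between 0.19 and 0.79). None of the 6 passed for breed.

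**Figure D4:**
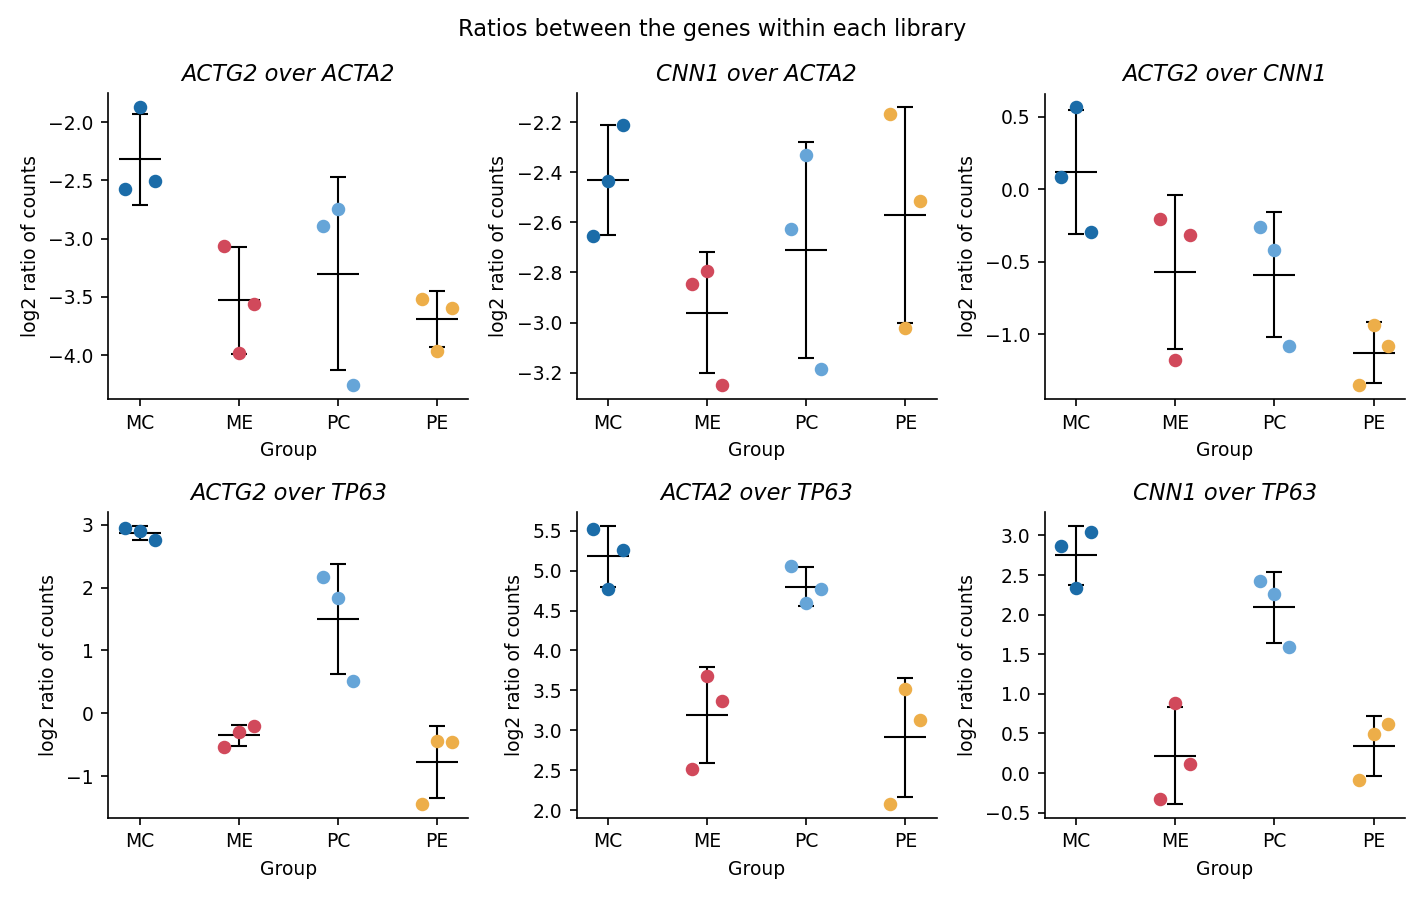
Log2 of the ratio of counts of 2 genes within each library (y axis), by group; points are goats, horizontal lines are means and bars are SD (n = 3). In the lower row, the ratios to TP63 separate all 6 control goats from all 6 restricted goats, and in the upper row the ratios among ACTG2, ACTA2 and CNN1 overlap between diets.

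The breeds were compared on each diet. On the control diet, ACTG2 had a Log2FC of -1.17 ± 0.36 in PC relative to MC, and its groups did not overlap, but the difference was not called by edgeR's test (adjusted p = 0.73), where 0.00691% of 14469 genes were called; 63.8% of the genes listed had groups that did not overlap. ACTG2 was the only 1 of the 4 with an unadjusted p under 0.05, as were 90.3% of the genes listed. The other genes, which were not in that table, had Log2FC of -0.56 (95% interval -1.26 to 0.14) for CNN1, -0.34 (-0.91 to 0.23) for ACTA2 and 0.10 (-0.58 to 0.79) for TP63. Among restricted goats, ME vs. PE, Log2FC lay between -0.32 for ACTG2 and 0.16 for CNN1, none of the 4 had an unadjusted p under 0.05 in edgeR's test, against 73.8% of the genes listed, and the share of genes called there was 0% of 15221. Neither edgeR nor DESeq2 called any of them in either comparison of breeds.

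Over both diets, the breed Log2FC (Palmera minus Majorera) was -0.75 for ACTG2 (95% interval -1.34 to -0.16, unadjusted p = 0.0164, adjusted p = 1.0 in edgeR's test; exact permutation p = 0.02). It was -0.22 (-0.74 to 0.29) for ACTA2, -0.20 (-0.70 to 0.31) for CNN1 and 0.08 (-0.29 to 0.45) for TP63. None was called, by edgeR or by DESeq2, where 0.142% of the 1408 genes were called by edgeR, and only ACTG2 had an unadjusted p under 0.05, against 22.7% of the 1408. The interaction, which asks whether the response to diet differed between breeds, was 0.82 (-0.30 to 1.94) for ACTG2, 0.69 (-0.28 to 1.67) for CNN1, 0.19 (-0.89 to 1.27) for ACTA2 and -0.09 (-0.86 to 0.69) for TP63. No interaction had an unadjusted p under 0.05 in edgeR's test, against 16.1% of the 1408 genes, DESeq2 called none, and 0.071% of the 1408 genes were called by edgeR. For ACTG2, ACTA2 and CNN1 its sign turned with mapped reads alone as library size (-0.04, -0.83 and -0.27). For TP63 the interaction ran from -1.48 to 0.22 over all alternatives. With milk protein reads taken out of the library size, the Log2FC of TP63 was 1.46 in MC vs. ME and -0.02 in PC vs. PE.

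The tables in which both breed and diet differ share their samples with those above. In MC vs. PE, ACTG2 was 6.27-fold lower in PE (Log2FC -2.65 ± 0.28, edgeR adjusted p = 0.0186), the only call among the 4 where 0.0745% of 14760 genes were called. That call was lost without MC replicate 1 (adjusted p = 0.0608), MC replicate 2 (0.072) or PE replicate 3 (0.0786). CNN1 had -1.46 ± 0.25 (edgeR adjusted p = 0.0717), ACTA2 -1.21 ± 0.37 (0.193) and TP63 0.93 ± 0.17 (0.0903), and all 4 had groups that did not overlap, as did 70.6% of the genes listed. In ME vs. PC, the Log2FC was 1.17 for ACTG2, 1.07 for CNN1, 0.76 for ACTA2 and -0.78 for TP63, all with an unadjusted p under 0.05 in edgeR's test, as for 88.1% of the genes listed, and none called by edgeR or DESeq2, where 0% of 15099 genes were called by edgeR.

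Other genes of the contractile apparatus were read from a list of 34, of which 14 stood in a table. In MC vs. ME, 8 were listed, with a median Log2FC of -0.81, the 3 genes above included, against 0.64 over all 1779 genes listed. Beside ACTG2, CNN1 and ACTA2, the lower ones were SMTN, which encodes the actin-binding smoothelin (-0.85 ± 0.28), TPM2, a tropomyosin gene (-0.77 ± 0.27), TAGLN, which encodes the calponin relative transgelin (-0.72 ± 0.26), and FLNA, which encodes the actin cross-linker filamin A (-0.59 ± 0.23). CNN2, the calponin gene that is also active outside muscle, was the only member with a positive value (1.14 ± 0.38). None of these 5 was called by edgeR's test (adjusted p between 0.271 and 0.365). TAGLN was at 83.2, 70.6 and 118 CPM in MC and 46.2, 66 and 54.9 CPM in ME, without overlap, as for 70.6% of the genes listed. The median of these 5 was -0.72. In PC vs. PE only ACTG2, CNN1 and ACTA2 of the list were in the table, so that it held no other contraction gene.

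Of the 6 contraction genes with counts in all 12 libraries, the 3 described above were called lower for diet, against 14.8% of the 1408 genes. SMTN (-0.43), DES (-0.12), which encodes the muscle intermediate filament desmin, and CNN2 (0.88) were not called. The median of these other 3 was -0.12, against 0.21 over the 1408 genes.

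Oxytocin signalling was read from 18 genes, 5 of which stood in a table. ITPR1, which encodes an intracellular calcium release channel, was the only 1 of them with counts in all 12 libraries. It was called higher in restricted goats (Log2FC 1.28 ± 0.21, edgeR adjusted p = 0.00873), as were 16.1% of the 1408 genes. MC goats had 4.68, 6.19 and 5.65 CPM against 17.2, 9.54 and 15.5 CPM in ME goats. PC goats had 4.19, 8.16 and 6.16 CPM against 20.3, 9.56 and 13.1 CPM in PE goats, so that the diets did not overlap, as for 18.5% of the 1408 genes. OXTR, the oxytocin receptor gene, was very low, at 0.353, 0.598 and 0.706 CPM in MC and 0.248, 0.0358 and 0.169 CPM in ME (Log2FC -2.01 ± 0.63, edgeR adjusted p = 0.249). The remaining genes, not called by edgeR, were ORAI1, a plasma membrane calcium channel gene, in MC vs. ME (-0.80 ± 0.39), and ITPR2, another release channel gene (-1.03 ± 0.33), and CALM2, a calmodulin gene (0.51 ± 0.18), in PC vs. PE.

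Regulators of smooth muscle genes were rarely listed, with 7 of 25 in any table. NOTCH1, a receptor gene of the Notch pathway, had 0.92 ± 0.29 in MC vs. ME. In PC vs. PE the coactivator partners TEAD3 (-0.78 ± 0.25) and TEAD1 (-1.14 ± 0.45) were lower, and SMAD7, an inhibitor of TGF-beta signalling (0.79 ± 0.26), and KLF4, a repressor of smooth muscle genes (0.69 ± 0.26), were higher in PE, with none called by edgeR (adjusted p between 0.178 and 0.256).

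Basal epithelial genes and known p63 targets were listed with either sign. The list held 41 genes, of which 14 stood in a table. In MC vs. ME, COL17A1, a hemidesmosome collagen gene (-0.92 ± 0.24), and LAMB3, a laminin chain gene of the basement membrane (-0.55 ± 0.16), were lower in ME, and TP63 was higher, with none called by edgeR. The median over the 6 genes listed, TP63 included, was -0.67. In PC vs. PE, DST, which encodes the hemidesmosome linker dystonin (0.71 ± 0.26), and KRT15 (1.49 ± 0.64) were higher in PE, and EDN1, the endothelin 1 gene (-1.70 ± 0.64), was lower, again with none called by edgeR, and the median over the 4 listed, TP63 included, was 0.77.

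Over 12 libraries TP63 was the only 1 of the 5 basal genes with counts throughout that was called for diet, against 30.9% of the 1408 genes. COL17A1 was at 12.3, 9.72 and 14.8 CPM in ME and 11.2, 17.8 and 14.7 CPM in PE, against 17.5, 23.9 and 27.5 CPM in MC and 13.9, 22.5 and 21.5 CPM in PC (Log2FC -0.66 ± 0.19, edgeR adjusted p = 0.0865). KRT15 had 1.47 ± 0.60 (edgeR adjusted p = 0.451), carried by ME replicate 2 and PE replicate 1. In these the TP63 level was the lowest and the middle value of its group under the main scaling. With mapped reads alone as library size, TP63 in ME replicate 2 was instead the highest of its group, at 11.5 CPM against 8.69 and 8.06 CPM.

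**Figure D5:**
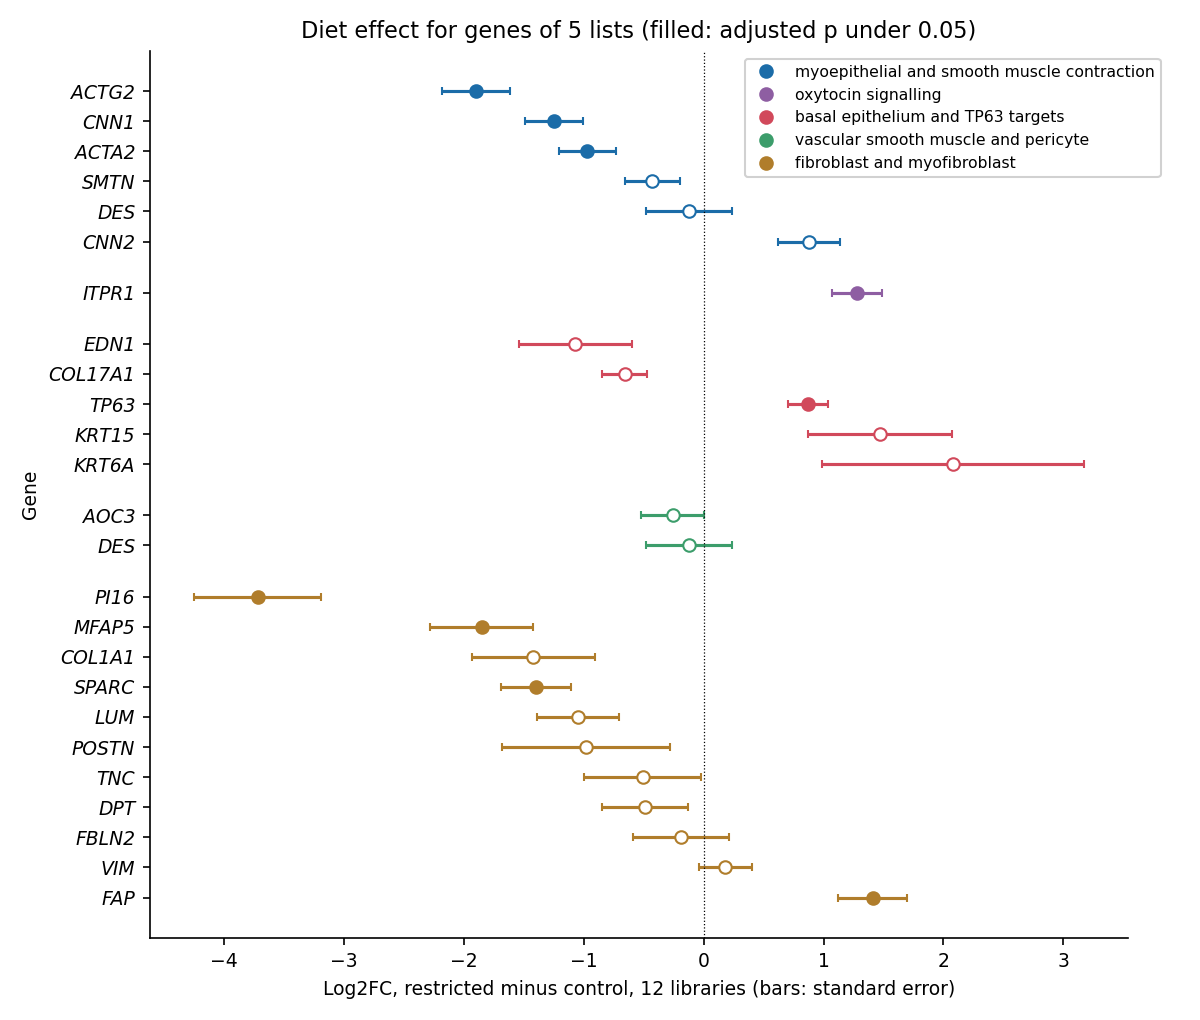
Diet Log2FC over 12 libraries (x axis, bars are SE) for genes of 5 lists that had counts in every library; filled symbols have an adjusted p under 0.05. Among contraction genes ACTG2, CNN1 and ACTA2 lie lowest, at -1.90, -1.25 and -0.97, and TP63 (0.87) and ITPR1 (1.28) are filled on the positive side.

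Markers of other cells that use the same contractile genes were read beside them. Of 18 vascular smooth muscle and pericyte genes, 8 stood in a table and 2 had counts in all libraries, DES and AOC3, which encodes a surface amine oxidase of vascular smooth muscle. Their summed level ran from 20.7 to 41.4 CPM in MC goats and from 20.7 to 46.0 CPM in ME goats. In Palmera it ran from 18.1 to 23.9 CPM on the control diet and from 9.66 to 17.3 CPM under restriction. The sum thus did not separate the diets in Majorera and did in Palmera, and no gene of it was at 0 in any library. In Palmera the lower sum came from AOC3, with means of 14.3 CPM in PC and 8.32 CPM in PE. DES had means of 6.04 CPM in PC and 6.34 CPM in PE, and it also stood in the contraction and skeletal muscle lists. The pericyte genes RGS5 (-0.89 ± 0.34) and NOTCH3 (-0.62 ± 0.24) and also AOC3 (-0.78 ± 0.33) were lower in PE, while PDGFRB, the platelet-derived growth factor receptor gene of pericytes and fibroblasts, was higher in ME (0.72 ± 0.18), none called by edgeR. The part of vascular cells in the diet differences of ACTG2, ACTA2 and CNN1 was not tested.

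Of 21 fibroblast genes, 11 had counts throughout, and 4 of them were called for diet, against 30.9% of the 1408 genes. Their summed level ran from 278 to 755 CPM in MC goats and from 204 to 554 CPM in ME goats, and from 206 to 320 CPM in PC goats against 145 to 201 CPM in PE goats. PI16 (-3.72), MFAP5 (-1.85) and SPARC (-1.40), which encode secreted or matrix proteins, were called lower and FAP, a surface protease gene of activated fibroblasts (1.41), higher for diet by edgeR. Of 19 macrophage genes, 8 had counts throughout, and their sum was 24.6 to 44.3 CPM in MC and 21.5 to 34.2 in PC, against 60.8 to 220 in ME and 33.4 to 67.8 in PE, with 5 of the 8 called higher, against 16.1% of the 1408 genes. Of 22 luminal and secretory genes, 6 had counts throughout, and 3 of them, the milk protein genes LALBA, CSN1S2 and CSN3, were called lower, against 14.8% of the 1408 genes. The luminal keratin gene KRT18 had a Log2FC of 1.03 and was not called. In MC vs. ME, KRT18 (0.95), the keratin gene KRT7 (0.69) and the receptor gene KIT (1.51) were higher in ME and not called by edgeR. Their groups did not overlap there, as for 70.6% of the genes listed, and the median Log2FC of all genes listed was 0.64. Of 10 adipocyte genes, 4 had counts throughout, summing to 1.25 to 12.5 CPM in control and 0.412 to 0.817 CPM in restricted goats, with 3 called lower, against 14.8% of the 1408 genes. Among 13 skeletal muscle genes, MYH2 and NEB were called lower of 3 with counts throughout, against the same 14.8%. The single endothelial (SELP) and skin (IVL) genes with counts throughout were not called. The part of these cell types in the differences of the 4 genes was not tested.

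The genes whose levels varied most like each of the 4 were sought among 976 others with counts throughout and a mean of at least 1 CPM, by Pearson r of log2(CPM + 1) over 12 libraries. These values are a description, and the points fall into 2 diets. The 4 genes themselves were left out of the ranking. Between them, r was 0.907 for ACTG2 and CNN1, 0.885 for ACTA2 and CNN1 and 0.818 for ACTG2 and ACTA2. With TP63 it was -0.641 for ACTG2, -0.629 for CNN1 and -0.586 for ACTA2. The closest to ACTG2 were MYCL, a MYC family gene (r = 0.962), MRAP2, a melanocortin receptor accessory protein gene (0.906), and EPHX1, the microsomal epoxide hydrolase gene (0.900). MYCL was at 6.16 ± 1.43 CPM in MC, 3.87 ± 2.75 in PC, 1.47 ± 0.546 in ME and 0.644 ± 0.254 in PE (SD, n = 3 each), the same order of groups as ACTG2 and with PC again the most variable.

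For ACTA2 the closest were C6H4orf40 (0.921), EPS8L1, a relative of the actin regulator EPS8 (0.912), and FOXRED1, a mitochondrial oxidoreductase gene (0.890). CNN1 varied most like DHRS12, a dehydrogenase family gene (0.922), SOD3, the extracellular superoxide dismutase gene (0.885), and SPIRE2, an actin nucleator gene (0.881). TP63 varied most like ARHGAP20 (0.930), ITPR1 (0.898) and SP4, a transcription factor gene (0.889). With mapped reads alone as library size, 11 of these 12 genes stayed within the 7 most alike and EPHX1 went to rank 40 (r = 0.690).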

How the data were processed

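Mammary biopsies of 12 goats were sequenced by stranded mRNA-seq, and per the labels the authors used Bowtie2 2.2.3, RSEM 1.2.17 and edgeR 3.2.4. The authors deposited expected counts in 6 tables, 1 per pair of groups; expected counts were rounded here. The deposited log2 fold changes were not used, and the deposited p-values and q-values served only to find how many genes the authors had tested (14469 to 15221). Library size was the mapped reads that the study gives times TMM factors. TMM factors and the dispersion trend came from the 1998 readable rows, of 24260, of the complete count table, the trend from those that reached 1 CPM in 3 or more libraries (846 rows in the fit of 12 libraries). All 3411 counts found in both sources agree within 1%. Pairs were tested with edgeR 4.0.16's quasi-likelihood test in R 4.3.3, adjusted by Benjamini-Hochberg over the genes tested, those not listed being taken as larger p. The fits of 12 libraries covered 1408 genes, adjusted over 15221. A gene is called at an adjusted p under 0.05. The fitting code was tested on simulated data.

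Alternatives were 3 other scalings, DESeq2 1.42.0's Wald test, no low count filter, adjustment over all 24260 rows, a replicate block, a pseudocount of 0.5 in place of 1 CPM, each library left out, and, added after seeing the data, leaving out ME replicate 2 and PE replicate 1, and testing every pair of groups in the fit of 12 libraries. Replicate numbers were not taken as pairs: same-numbered libraries correlated at -0.319 to 0.229 (18 pairs). The 4 genes and the 12 gene lists were chosen with earlier results of these data known. Apart from the genes that bound the milk protein reads, the text names the 4 genes, up to 4 genes of a list with the smallest p in MC vs. ME or PC vs. PE, and the 3 genes most like each of the 4. A gene that this rule names is not reported here. Outside the rule, TPM2, TAGLN, FLNA, CNN2, DES, CSN3, KRT7 and other list genes taken from the fit of 12 libraries were named after their values were seen.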

Additional observations from a re-analysis of the deposited data

How the results depend on the processing

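Of the 4 genes, the diet effect over both breeds called 2 with mapped reads alone, where 42.5% of the 1408 genes were called. It called 1 with milk protein reads taken out of the library size, where 17% were called. Without single libraries it called 3 or 4, where 14.7% to 37.5% were called. Without ME replicate 2 and PE replicate 1, an alternative chosen after seeing the data, it called 1, where 8.1% were called. The diet Log2FC with mapped reads alone was -0.57 for ACTA2 and -0.78 for CNN1. With milk protein reads taken out it was -1.12 for ACTA2, -1.36 for CNN1 and 0.72 for TP63. With p adjusted over all rows of the count table ACTA2 (-0.97) had an adjusted p of 0.0771 in edgeR's test. Without single libraries or that pair, it ran from -1.23 to -0.84 for ACTA2, -1.41 to -1.11 for CNN1 and 0.75 to 1.01 for TP63, and without the pair it was -0.87, -1.26 and 0.93. The cause of these changes was not tested. MC vs. ME called 2 of the 4 genes with mapped reads alone (with 2.54% of all genes tested), 3 with DESeq2's Wald test (1.42%) and 2 with no filter on low counts (0.271%). It called 0 in the fit of all 12 libraries, an alternative also chosen after seeing the data, and 0 to 2 without single libraries (0% to 0.265%). PC vs. PE called 1, 2 and 1 of them with mapped reads alone, with milk protein reads taken out and with no filter (with 2.71%, 5.94% and 3.22% of all genes tested). MC vs. PE called 3 under each of DESeq2's Wald test (with 1.27% of all genes tested), no filter (1.54%) and milk protein reads taken out (3.28%). Without single libraries it called 0 to 3 (0.0203% to 1.56%), and ME vs. PC called 1 with mapped reads alone (8.13%). The sign turned only where the difference had not been called. With milk protein reads taken out, TP63 was at -0.02 in PC vs. PE, ACTA2 at 0.48 and CNN1 at 0.25 in MC vs. PC, and CNN1 at -0.55 and TP63 at -0.62 in ME vs. PE, and the interaction was -0.64 for ACTG2, -1.34 for ACTA2 and -0.81 for CNN1. With mapped reads alone, ACTA2 was at 0.02 in MC vs. PC, CNN1 at -0.49 and TP63 at -0.50 in ME vs. PE, the breed effect on TP63 was -0.03, and the interaction was -0.04 for ACTG2, -0.83 for ACTA2 and -0.27 for CNN1. Without single libraries or that pair, TP63 ran from -0.17 to 0.38 in MC vs. PC, ME vs. PE gave -0.57 to 0.32 for ACTA2, -0.003 to 0.59 for CNN1 and -0.08 to 0.15 for TP63, the breed effect on TP63 ran from -0.05 to 0.19, and the interaction from -0.27 to 0.68 for ACTA2 and from -0.35 to 0.22 for TP63. The log2 ratio of ACTG2 over CNN1 ran from -0.74 to -0.40 and that of ACTG2 over ACTA2 from -1.05 to -0.67.

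With the replicate number as a block, MC vs. ME called 0 of the 4 genes (ACTG2 -2.32, edgeR adjusted p = 0.377) and MC vs. PE called 0 (ACTG2 -2.71, edgeR adjusted p = 0.0627), while the diet effect over 12 libraries still called 4, and no other member's call changed with the block. The numbers were not taken as pairs, since the labels tie them to nothing shared and deviations of same-numbered libraries correlated at -0.319 to 0.229, against -0.422 to 0.356 for other numbers, so that a call lost with the block is not read as a weaker effect.

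Counts of genes called over whole tables moved more. MC vs. ME had 6, against 384 with mapped reads alone, 214 with DESeq2, 41 with no filter and 0 with the block. PC vs. PE had 1, against 877 with milk protein reads taken out, 475 with no filter, 400 with mapped reads alone, 220 with DESeq2 and 207 with the block. MC vs. PC had 1, against 287 with milk protein reads taken out, 26 with no filter and 5 with DESeq2. ME vs. PE had 0, against 442, 369 and 31 with milk protein reads taken out, mapped reads alone and DESeq2. MC vs. PE had 11, against 484, 394, 228 and 188 with milk protein reads taken out, mapped reads alone, no filter and DESeq2, and 3 with the block. ME vs. PC had 0, against 1227, 347, 210 and 65 with mapped reads alone, milk protein reads taken out, DESeq2 and no filter. The diet effect had 435, against 240 with milk protein reads taken out, 262 adjusted over all rows and 114 without ME replicate 2 and PE replicate 1. Without single libraries, the counts ran from 207 (without PE replicate 1) to 528 (without PE replicate 2) for diet, from 0 (without ME replicate 3) to 40 (without ME replicate 2) for MC vs. ME, from 1 to 133 (without PE replicate 2) for PC vs. PE, and from 3 (without MC replicate 2) to 230 (without PE replicate 2) for MC vs. PE. Each group held 3 goats and the tables only genes past the authors' threshold, which limits what can be said of genes outside them.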
